A study of Mus musculus with 59 samples.

Results

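Keratins are the intermediate filament proteins of epithelial cells, and this account follows every keratin gene of the mouse across 59 uterine RNA-seq libraries. Members were taken by symbol, Krt followed by a number and at most 1 letter, which gave 53 of the 21706 genes in the deposited tables. Of these, 28 were detected, meaning a mean of at least 1 CPM (counts scaled to library size) in at least 1 of 12 groups: all 5 simple keratins, 13 of 18 stratified keratins, 7 of 24 hair keratins and 3 of 6 others (Krt23, Krt80 and Krt222). The other 25 members were at or near 0, with total counts over all 59 libraries between 0 for Krt34 and Krt72 and 208 for Krt78.

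The study deleted oestrogen receptor α (ERα, encoded by Esr1) from the uterine epithelium and examined the days before implantation. Knockout females were epiERα-/- (Esr1f/- Wnt7aCre/+), in which Cre made by the epithelial gene Wnt7a removes the floxed allele. Control females were Esr1f/-, so both genotypes carried 1 null Esr1 allele in every cell. Virgin females of about 2 to 6 months were mated with wild type stud males, and uteri were taken at D3.5 or at D0.5, the day of the mating plug. Same-genotype littermates were divided between the days, but which animals were littermates is unknown here. From each uterus 3 materials could be sampled. LE is luminal epithelium scraped from horns that had been opened, still joined at the cervix, and held for 30 min in 0.5% dispase. DU is a piece of that digested uterus kept before scraping, and U is undigested whole uterus. The 29 mice gave 6 D3.5 knockout, 4 D3.5 control, 7 D0.5 knockout and 9 D0.5 control LE libraries, then 3, 3, 3 and 4 DU libraries and 5, 5, 4 and 6 U libraries in that order of groups. Each tissue's RNA was isolated as 1 batch, and a tissue difference and a batch difference cannot be told apart.

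Keratin filaments are built from equal numbers of type I and type II chains, and a chain without a partner is generally unstable. Simple epithelia such as the uterine lining use the type II chains Krt8 and Krt7 with the type I chains Krt18 and Krt19. Stratified epithelia use Krt5 with Krt14 or Krt15 in their basal cells and exchange them for other pairs (Krt1 with Krt10, Krt4 with Krt13) as cells leave the basal layer, while Krt6, Krt16 and Krt17 are known from injured or activated skin. Hair keratins form the hard fibres of hair and nail. In the mouse uterus the lumen is lined by a single layer of simple epithelium, oestrogen acts on it strongly around mating, and progesterone dominates by D3.5.

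The upstream sequences of 4 members are shown because these genes carry the contrasts below: Krt8 and Krt18 are neighbouring partners that moved differently, and Krt20 and Krt23 were among the genes lowered most in the knockout. RefSeq's table (GRCm38.p6, a build other than the GRCm39 named in the submitters' processing notes) held promoters for 36 of the 53 members, 37 windows in all. Each line gives the 250 bases before the start of transcription, 5′ to 3′ on the gene's strand, and capitals mark GGTCA or its reverse complement TGACC, the core letters of the element that ERα is known to bind.
Krt8: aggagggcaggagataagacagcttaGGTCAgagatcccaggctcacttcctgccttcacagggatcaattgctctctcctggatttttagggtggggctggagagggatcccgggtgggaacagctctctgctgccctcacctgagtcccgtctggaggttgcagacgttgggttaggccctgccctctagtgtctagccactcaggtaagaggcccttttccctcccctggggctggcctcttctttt
Krt18: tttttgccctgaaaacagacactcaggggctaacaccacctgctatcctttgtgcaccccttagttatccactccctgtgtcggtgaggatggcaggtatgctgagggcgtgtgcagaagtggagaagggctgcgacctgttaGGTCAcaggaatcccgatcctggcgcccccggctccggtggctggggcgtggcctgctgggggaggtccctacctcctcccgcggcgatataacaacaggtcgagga
Krt20: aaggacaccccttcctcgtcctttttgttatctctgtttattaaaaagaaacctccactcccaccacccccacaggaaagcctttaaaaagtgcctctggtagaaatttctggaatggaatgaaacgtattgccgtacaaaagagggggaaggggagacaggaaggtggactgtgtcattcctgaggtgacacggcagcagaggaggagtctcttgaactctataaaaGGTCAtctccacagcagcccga
Krt23: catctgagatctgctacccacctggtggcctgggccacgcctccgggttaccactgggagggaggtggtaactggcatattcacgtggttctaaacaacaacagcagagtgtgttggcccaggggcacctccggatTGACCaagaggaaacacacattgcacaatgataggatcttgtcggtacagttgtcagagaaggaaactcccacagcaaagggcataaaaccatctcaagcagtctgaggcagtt
The windows lie at chr15:102004343-102004592 on the minus strand (Krt8), chr15:102027966-102028215 on the plus strand (Krt18), chr11:99438154-99438403 on the minus strand (Krt20) and chr11:99493121-99493370 on the minus strand (Krt23). The marked letters begin 224 bases before the start in Krt8, 107 in Krt18, 22 in Krt20 and 114 in Krt23. The full palindromic element, GGTCA and TGACC with 3 bases of any kind between them, was found in 0 of the 37 keratin windows and in 0.0639% of 32851 windows of all genes. The 5 marked letters, searched on both strands, were in 13 of the 37 keratin windows and in 35.2% of all windows, so their presence does not set keratins apart. TATAAA, on either strand, was in 17 of the 37 keratin windows and in 12.4% of all, and in Krt20 it begins 29 bases before the start. On chromosome 11 Krt12, Krt20 and Krt23 follow each other in the order of keratin genes, as do Krt13, Krt15 and Krt19, and on chromosome 15 Krt8 and Krt18 are neighbours.

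Levels are compared between genes in the authors' TPM, a relative abundance scaled for transcript length. In LE the simple keratins made up most keratin RNA: 73.5% ± 20.1 of keratin TPM at D3.5 in knockout and 96.9% ± 1.92 in control mice, and 93.8% ± 4.84 at D0.5 in knockout and 97.2% ± 2.85 in control mice (SD, n = 6, 4, 7 and 9). Krt8, Krt18 and Krt19 were the 3 most abundant keratins in D3.5 control LE and in both D0.5 groups, and the exception was D3.5 knockout LE, where Krt15 (mean 1103 TPM) stood beside Krt19 (1186 TPM) and above Krt8 (872 TPM). Krt15 is a type I keratin of basal cells in stratified epithelia, and its mean was 21.6 TPM in D3.5 control LE, 17.9 TPM in D0.5 knockout LE and 4.51 TPM in D0.5 control LE. The summed keratin level was 4247 ± 1720 TPM at D3.5 in knockout and 1597 ± 505 TPM in control LE, and 1586 ± 437 TPM at D0.5 in knockout and 3498 ± 988 TPM in control LE. The order of these knockout and control means was therefore opposite on the 2 days. In CPM the sums overlapped on both days. They were 2140 to 6270 CPM (median 4340) in knockout and 1370 to 2610 CPM (median 2200) in control LE at D3.5. At D0.5 they were 1550 to 3390 CPM (median 1870) in knockout and 3130 to 8530 CPM (median 5330) in control LE.

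**Figure D1:**
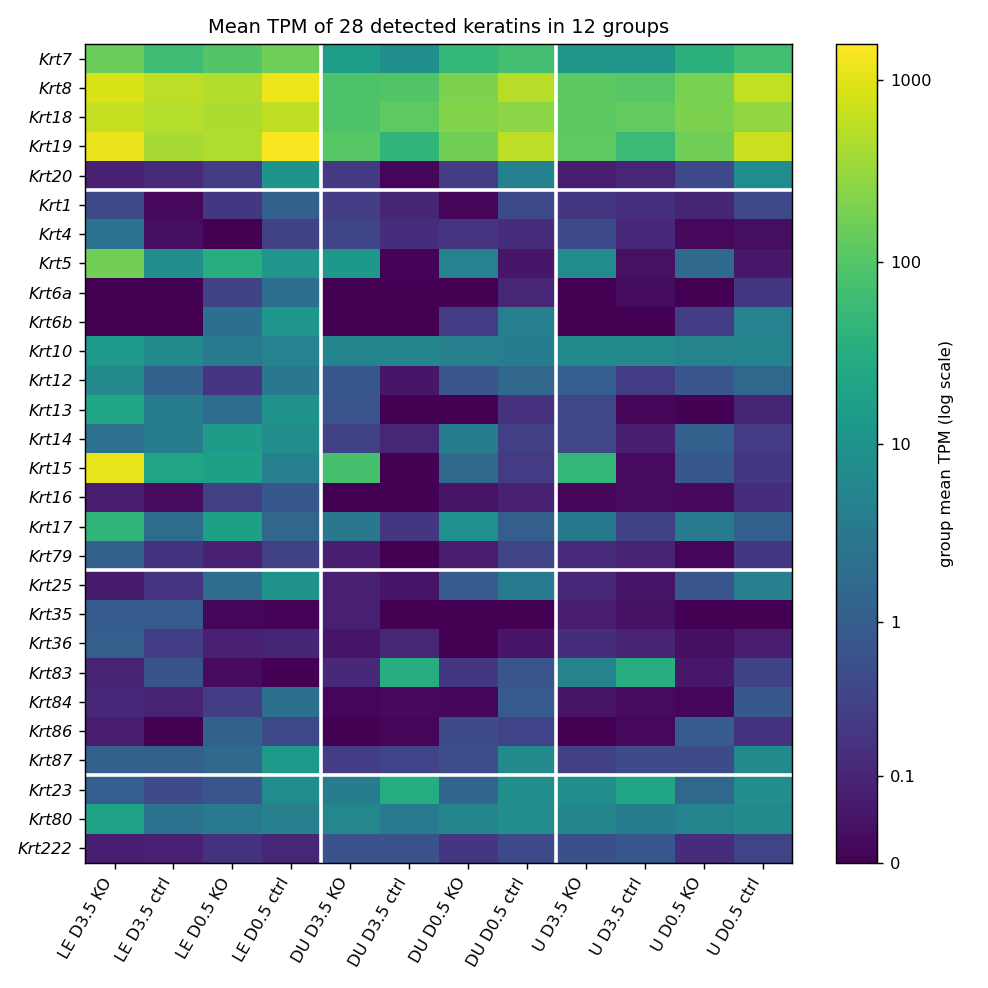
Mean TPM of the 28 detected keratins (rows, in the order simple, stratified, hair, other; white lines separate the classes) in the 12 groups of tissue, day and genotype (columns; KO knockout, ctrl control), on a log colour scale. Krt8, Krt18 and Krt19 are bright in every group, Krt15 reaches 1103 TPM in D3.5 knockout LE against 21.6 TPM in D3.5 control LE, and Krt6a and Krt6b are at 0 in LE of both genotypes at D3.5.

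The check of the deletion is Esr1 itself. It measured 52.1 to 73.2 CPM in D3.5 knockout LE against 104 to 162 CPM in D3.5 control LE, and 34.8 to 62.9 CPM in D0.5 knockout LE against 110 to 273 CPM in D0.5 control LE, without overlap on either day. In U and DU, where stroma and muscle keep the receptor, the 2 genotypes were closer. U knockout mouse 33 at D3.5 had 212 CPM, above all 5 control libraries (135 to 195 CPM), and its keratins also stood apart, so it is called the library labelled knockout 33 and results that rest on it are given with and without it. Control mouse 9 at D0.5 stood apart in LE, with keratins of stratified epithelium far above the other 8 libraries, and it is treated in the same way. In D3.5 knockout LE, mice 35, 36 and 37 held much more basal keratin RNA than mice 31, 32 and 34. Library totals, in M counts, ran from 13.5 to 80.3 in LE, 11.3 to 108 in U and 14.1 to 46.2 in DU. A difference is called where edgeR's quasi-likelihood test, fitted over all genes of a tissue with Benjamini-Hochberg adjustment, gave an adjusted p under 0.05, and the words rose and fell are used for called genes only.

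At D0.5 the knockout LE held less RNA of most simple keratins. Of the 27 keratins that passed the count filter in LE, 12 fell and 1 rose in the knockout, while 12.6% of all tested genes fell and 10.9% rose. Krt8, the type II chain of simple epithelia, measured 438 to 1130 CPM with a median of 696 CPM in 7 knockout libraries, against 1217 to 3536 CPM with a median of 2091 CPM in 9 control libraries. No knockout library reached the lowest control, and the log2 fold change was -1.40 ± 0.24 (SE, adjusted p = 8.69e-05, edgeR). Krt19, a type I chain that also pairs with Krt8, measured 388 to 782 CPM with a median of 537 CPM in knockout LE and 998 to 3474 CPM with a median of 2051 CPM in control LE. These groups did not overlap either, with a log2 fold change of -1.70 ± 0.27 (adjusted p = 3.37e-05). Krt7, another type II chain of simple and ductal epithelia, measured 135 to 327 CPM with a median of 204 CPM in knockout LE against 161 to 681 CPM with a median of 334 CPM in control LE, overlapping groups with a log2 fold change of -0.87 ± 0.28 (adjusted p = 0.0214).

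Krt18 behaved differently from its partner Krt8. It measured 326 to 742 CPM with a median of 442 CPM in D0.5 knockout LE and 472 to 836 CPM with a median of 645 CPM in D0.5 control LE, and the groups overlapped. Its log2 fold change of -0.44 ± 0.20 did not pass (adjusted p = 0.108), although without knockout mouse 25 it did (-0.54, adjusted p = 0.0426). As a description on the TPM scale, the ratio of Krt8 to Krt18 averaged 1.39 ± 0.18 in D3.5 knockout LE and 1.10 ± 0.05 in D3.5 control LE, and 1.11 ± 0.12 in D0.5 knockout LE and 2.20 ± 0.79 in D0.5 control LE. The 9 D0.5 control libraries ran from 1.01 to 3.41, whereas no knockout library at D0.5 exceeded 1.27. The spread among controls went with the mouse: mouse 1 had the lowest ratio in LE (1.01), DU (0.978) and U (0.948), and mouse 8 had the highest in LE (3.41), DU (3.48) and U (3.03). Mouse 8 also had the highest Krt8 of the D0.5 controls in LE (3536 CPM), DU (1335 CPM) and U (2328 CPM).

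**Figure D2:**
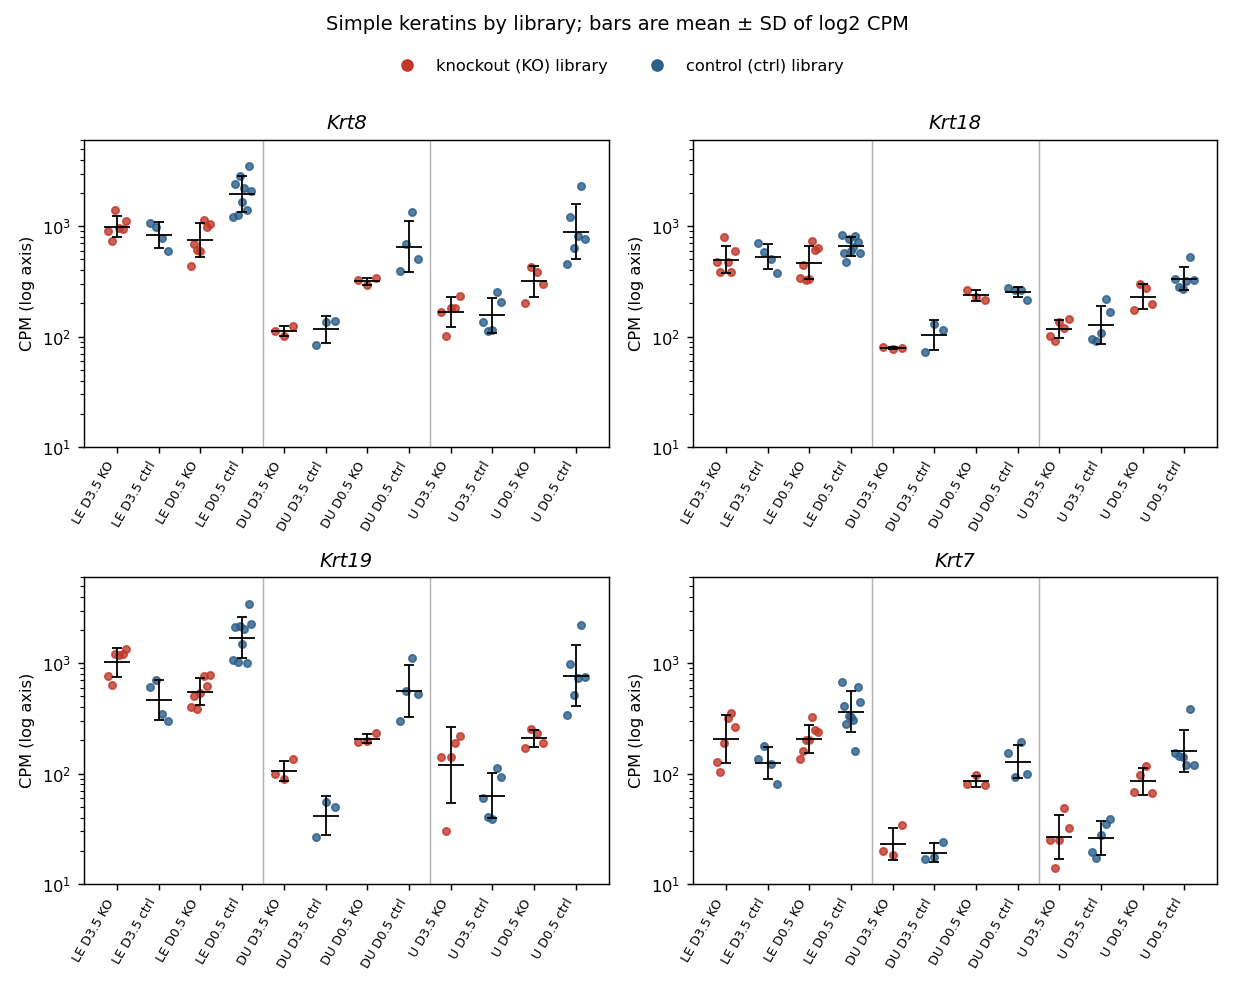
CPM of Krt8, Krt18, Krt19 and Krt7 in every library (points; knockout red, control blue) over the 12 groups on log axes; black bars are the mean and SD of log2 CPM. D0.5 control LE is the highest group on average for Krt8 (1217 to 3536 CPM) and Krt19 (998 to 3474 CPM), while Krt18 overlaps between knockout and control LE on both days.

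**Figure D3:**
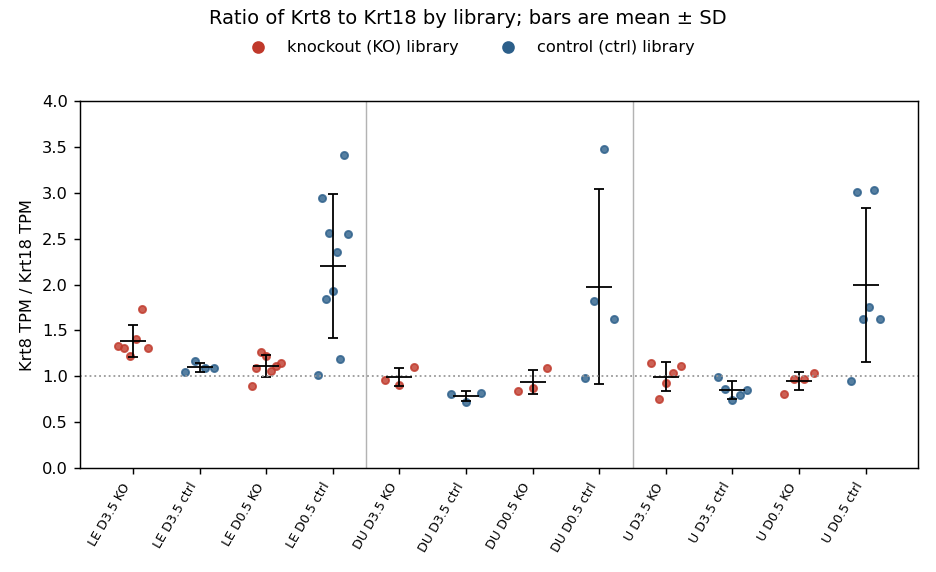
Ratio of Krt8 TPM to Krt18 TPM in every library over the 12 groups, with mean ± SD and a dotted line at 1. D0.5 controls spread from 1.01 to 3.41 in LE and up to 3.48 in DU and 3.03 in U, and D0.5 knockout LE stays between 0.89 and 1.27.

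Krt20, a simple keratin known from intestinal and urothelial surface cells, fell furthest among the simple class at D0.5. It measured 0 to 0.929 CPM with a median of 0.492 CPM in knockout LE against 0.992 to 41.4 CPM with a median of 14.5 CPM in control LE, non-overlapping groups with a log2 fold change of -5.33 ± 0.90 (adjusted p = 7.82e-05). Krt23, a type I keratin outside the named classes, measured 0.0844 to 1.68 CPM in knockout LE against 5.19 to 17.9 CPM in control LE, also without overlap (log2 fold change -3.55 ± 0.54, adjusted p = 2.11e-05). Krt87, a type II hair keratin, measured 2.05 to 5.53 CPM in knockout LE and 7.87 to 44.5 CPM in control LE and had the smallest adjusted p of the family (log2 fold change -3.07 ± 0.42, adjusted p = 6.42e-06). The other called genes were low in abundance. On the log2 scale the fold change was -4.11 for Krt12, known from corneal epithelium, -3.14 for Krt84, -2.56 for Krt6b, -2.52 for Krt1 and -2.44 for Krt25, a keratin of the hair root sheath. Krt4 was at 0 counts throughout the 7 knockout libraries and totalled 111 counts over 9 control libraries, at least 25-fold lower against a floor of 3 counts over the knockout group, but its control counts came mostly from mouse 1 (3.62 CPM) and mouse 9 (1.9 CPM), and without mouse 1 the bound was 10-fold.

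Krt17 was the exception in direction. This basal and wound-associated type I keratin measured 3.18 to 81.3 CPM with a median of 14.6 CPM in D0.5 knockout LE against 0.121 to 5.71 CPM with a median of 1.11 CPM in D0.5 control LE. The groups overlapped between 3.18 and 5.71 CPM, and Krt17 rose by 3.56 ± 0.75 on the log2 scale (adjusted p = 0.000862). Krt5, the basal type II keratin, measured 0.907 to 156 CPM with a median of 18.2 CPM in knockout LE, against 0 to 0.517 CPM in 8 control libraries and 207 CPM in control mouse 9. With all libraries Krt5 was not called, and without mouse 9 it was (log2 fold change 9.16 ± 1.40, adjusted p = 3.21e-05), as was Krt15 (4.05 ± 0.96, adjusted p = 0.00305). Mouse 9 also had Krt13 at 128 CPM, Krt14 at 80.1 CPM and Krt6a at 33.0 CPM, and markers of squamous epithelium stood out there too: Cnfn 22.1 CPM against at most 0.404 CPM in the other 8 libraries, Trp63 7.61 CPM against at most 0.411 CPM, and Sprr1b and Sprr3 with counts in this library alone of the D0.5 control LE. The summed level of the 14 squamous genes was within the group's range (229 CPM; range 79.6 to 335 CPM), but Sfn made up much of that sum. Sfn alone measured 124 CPM in mouse 9 and 274 CPM in mouse 1. The mean of log2(CPM + 0.05) over the 14 genes, which weighs each gene equally, was 1.744 in mouse 9. In the other 8 control libraries it was -0.978 to -0.129. Dsg1a was at 0 in all 9 D0.5 control LE libraries. No knockout library was left out in the fit without mouse 9. The knockout LE libraries with the most Krt5, of mice 21, 24 and 25 (4741, 1360 and 2591 counts), had Trp63 at 20.3, 12.1 and 23 CPM. Trp63 was 0.628 to 7.53 CPM in the other knockout libraries. The summed squamous genes overlapped, at 122 to 281 CPM in mice 21, 24 and 25 and 78.3 to 207 CPM in the others. Their mean on the log2 scale did not overlap, at 0.37 to 0.492 in mice 21, 24 and 25 and -1.16 to -0.448 in the others. The part of other epithelium in the keratins of mouse 9 and of these knockout libraries was not tested.

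At D3.5 the direction in LE was the opposite: 5 keratins rose and none fell in the knockout, while 7.79% of all tested genes rose and 5.7% fell. Krt80, a type II keratin known from differentiating epithelia, measured 18.1, 26.6, 45.3, 32.0, 40.1 and 47.1 CPM in knockout mice 31, 32, 34, 35, 36 and 37, against 5.14, 7.98, 6.54 and 4.4 CPM in control LE. All knockout libraries were above all controls, and Krt80 rose by 2.53 ± 0.36 on the log2 scale (adjusted p = 2.5e-05). Krt15 measured 212, 196, 101, 1966, 2593 and 1209 CPM in the same 6 knockout mice, against 41.1, 65.4, 6.59 and 0.531 CPM in control LE. The groups did not overlap, the level in mice 35, 36 and 37 was several times that in mice 31, 32 and 34, and the log2 fold change was 5.20 ± 1.66 (adjusted p = 0.0359). Krt17 measured 3.51 to 101 CPM with a median of 25.0 CPM in knockout LE against 2.40, 2.94, 2.58 and 0.531 CPM in control LE, without overlap (log2 fold change 4.13 ± 1.08, adjusted p = 0.0106).

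Krt19 was the only simple keratin called at D3.5. It measured 640 to 1344 CPM with a median of 1194 CPM in knockout LE and 613, 702, 350 and 298 CPM in control LE, overlapping between mouse 32 and control mouse 14, and rose by 1.11 ± 0.34 on the log2 scale (adjusted p = 0.0289). Krt8 measured 727 to 1391 CPM in knockout LE and 591 to 1073 CPM in control LE (log2 fold change 0.24 ± 0.30, adjusted p = 0.676), Krt18 381 to 791 CPM in knockout LE and 378 to 704 CPM in control LE (-0.07 ± 0.25, adjusted p = 0.9), and Krt7 103 to 352 CPM in knockout LE and 81.4 to 178 CPM in control LE (0.80 ± 0.36, adjusted p = 0.151). For these 3 genes the groups overlapped and no difference was called. Krt1, a keratin of cells above the basal layer, totalled 89 counts in knockout LE (0.674 CPM pooled) and 2 counts in control LE and was the fifth called gene, at a level near the detection limit. The type II share of keratin TPM was 30.4% ± 4.96 in D3.5 knockout LE and 40.2% ± 2.38 in D3.5 control LE, against 39.6% ± 1.72 in D0.5 knockout LE and 41.1% ± 1.75 in D0.5 control LE.

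The D3.5 comparison in LE was repeated without the libraries rich in basal keratins, which leaves 3 of 6 knockout libraries. With the knockout limited to mice 31, 32 and 34, 2 keratins were called, Krt80 (2.34 ± 0.40, adjusted p = 0.000631) and Krt12 (3.02 ± 0.81, adjusted p = 0.0248), and 7.18% of all tested genes. The log2 fold change of Krt15 was then 2.61 ± 1.54, against 5.20 with all 6, and that of Krt17 was 1.24 ± 0.92, against 4.13. That of Krt19 was 0.85 ± 0.40, against 1.11 with all 6, and it was no longer called (adjusted p = 0.226). Leaving out knockout mouse 35 or 36, or control mouse 15 or 16, ended the calls of both Krt15 (adjusted p up to 0.0962) and Krt19 (up to 0.105); leaving out control mouse 11 ended that of Krt15 and leaving out knockout mouse 37 that of Krt19, and the count ran from 3 to 6. The same 3 mice were high for Krt5 (457, 576 and 204 CPM against 21.6 to 28.7 CPM in mice 31, 32 and 34), Krt13, the type I keratin of internal stratified epithelia (57.4, 42 and 20.9 CPM against 1.74 to 2.80 CPM), and Krt4, its partner (9.32, 5.84 and 1.74 CPM against 0.17 to 1.02 CPM). Neither Krt5, Krt13 nor Krt4 was called between genotypes at D3.5. Krt14, the usual partner of Krt5, did not follow: it measured 0 to 5.52 CPM in D3.5 knockout LE and 0.987 to 12.3 CPM in D3.5 control LE.

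**Figure D4:**
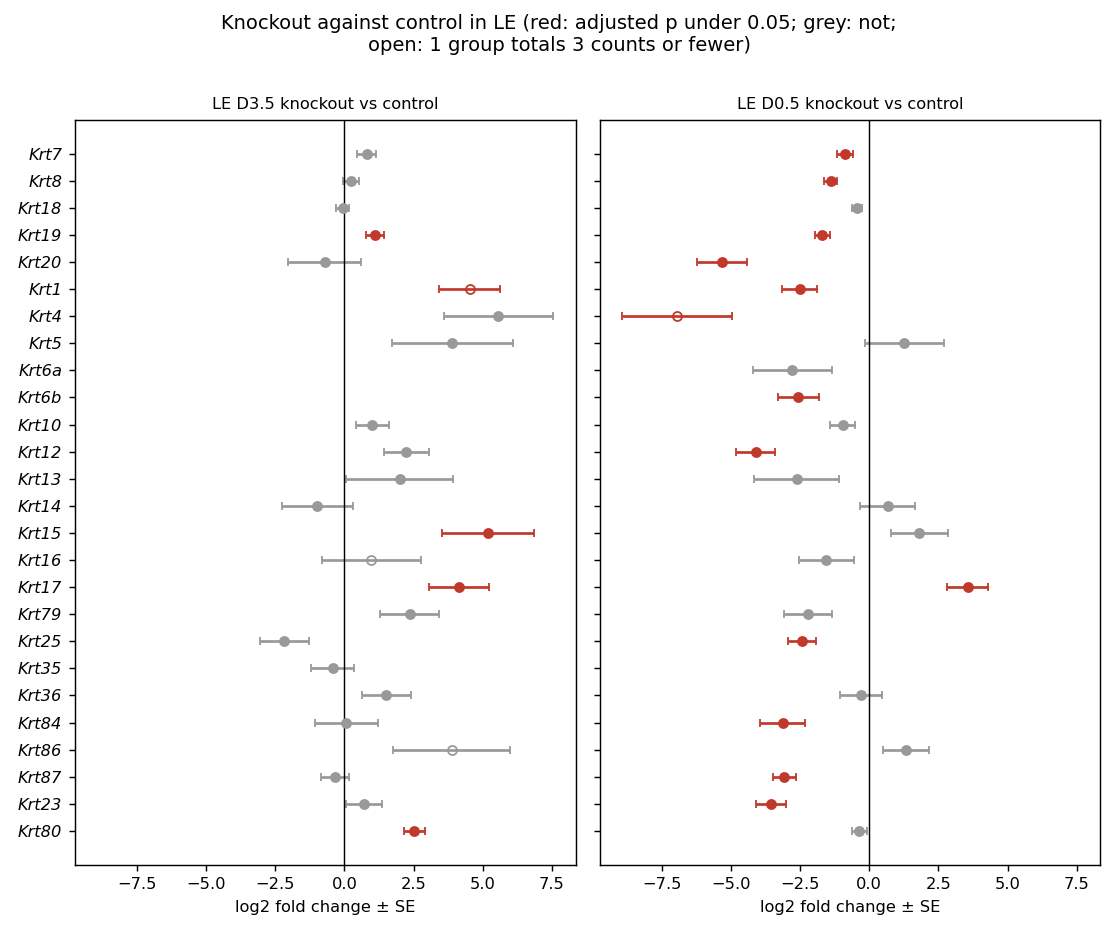
Log2 fold change ± SE, knockout against control, for the 26 detected keratins that were tested in LE, at D3.5 (left) and D0.5 (right); red marks an adjusted p under 0.05, grey the rest, and open circles genes where 1 of the groups totals 3 counts or fewer, whose fitted value is no bound; Krt6a and Krt6b have no D3.5 point because both groups were at 0. Most red points lie left of 0 at D0.5, and all 5 red points lie right of 0 at D3.5.

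Several, not all, markers of stratified epithelium outside the keratins were highest in those mice. In D3.5 knockout LE, Trp63, the master factor of basal cells, measured 51.6, 75.8 and 24.7 CPM in mice 35, 36 and 37 and 3.1 to 13.1 CPM in mice 31, 32 and 34, against 0.23 to 3.71 CPM in D3.5 control LE. The hemidesmosome collagen Col17a1 rose by 4.76 on the log2 scale (adjusted p = 0.00719), but of the 9 squamous genes tested only Ivl rose (2.90, adjusted p = 0.0378). The summed level of the 14 squamous genes was 36.3 to 310 CPM in knockout LE and 37.3 to 68.7 CPM in control LE. Ly6d, Calml3 and Sfn followed Trp63, with 11.5 to 41.4, 13.1 to 44.6 and 61 to 131 CPM in mice 35, 36 and 37 and at most 1.7, 1.85 and 19.8 CPM in mice 31, 32 and 34, and Dsg3 did not (3.39 to 8.68 and 3.16 to 7.72 CPM). Genes of the upper and cornified layers were mixed. Dsg1a, Sprr1b and Krtdap were at 0 in all 10 D3.5 LE libraries, Sprr3 reached at most 0.132 CPM and Cnfn at most 0.118 CPM. Ivl measured 0.473 to 2.84 CPM in knockout and 0 to 0.322 CPM in control LE, Sbsn 3.77 to 10.9 CPM in knockout and 4.8 to 22.9 CPM in control LE, Tgm1 0.814 to 4.53 CPM in knockout and 1.05 to 4.77 CPM in control LE, and Tgm3 0 to 0.89 CPM in knockout and 0.218 to 0.911 CPM in control LE. The horns were opened still joined at the cervix, whose outer part is lined by stratified epithelium, and the part of such cells in the basal keratins of these libraries was not tested.

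Genes that anchor keratin filaments were counted beside the keratins. Of all tested genes in LE, 12.6% fell and 10.9% rose in the knockout at D0.5, and 5.7% fell and 7.79% rose at D3.5, which is the background for each count here. Of 18 desmosome and linker genes tested in LE, 7 fell and 1 rose in the knockout at D0.5 (median log2 fold change -0.33 over the 18, -0.01 over all tested genes), and 4 rose and none fell at D3.5 (median 0.38, against -0.01 over all). At D0.5 the linkers envoplakin (Evpl, -1.20, adjusted p = 1.37e-06), periplakin (Ppl, -1.06, adjusted p = 2.45e-05) and desmoplakin (Dsp, -0.72, adjusted p = 0.000121) fell. At D3.5 the desmosomal cadherin Dsc2 (2.88, adjusted p = 2.5e-05), Dsp (0.76, adjusted p = 0.0021) and plakoglobin (Jup, 0.71, adjusted p = 0.00437) rose. Of 9 other intermediate filament genes, Lmna fell (-0.80) and Prph rose (2.74) at D0.5 and Lmnb1 rose (1.09) at D3.5. General epithelial genes without keratins also differed: 6 of 16 fell and none rose at D0.5, with summed levels of 6970 to 10200 CPM in knockout and 10400 to 21500 CPM in control LE, and 2 rose and 2 fell at D3.5, with 4680 to 7720 CPM in knockout and 5500 to 8060 CPM in control LE. Of the lists for other cells, 7 of 8 neutrophil genes rose at D0.5 and none of 8 was called at D3.5, and 3 of 6 gland genes rose on each day. Of the mesothelial (8), stromal (9), smooth muscle (9) and erythroid (5) genes tested, only the smooth muscle gene Tagln was called, lower at D0.5 (-1.18). In any of these tissues, fewer epithelial cells and less RNA per cell cannot be told apart, and the part of these other cells and of the epithelial share in the keratin differences was not tested.

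Between the days, control LE lost keratin RNA. At D3.5 against D0.5, 14 keratins fell and 1 rose in control LE, while 22.8% of all tested genes fell and 21.2% rose. Krt8 fell by 1.27 ± 0.29 on the log2 scale (591 to 1073 CPM at D3.5, 1217 to 3536 CPM at D0.5; adjusted p = 0.000875), as did Krt19 (-1.92 ± 0.34, adjusted p = 4.25e-05), Krt7 (-1.61 ± 0.35, adjusted p = 0.00054) and Krt20 (-6.74 ± 1.29, adjusted p = 0.000119). The ranges of Krt8, Krt19 and Krt20 did not overlap between the days. Krt18, at 378 to 704 CPM at D3.5 and 472 to 836 CPM at D0.5, was not called. Keratins of low abundance outside the simple class made up the rest, among them Krt87 (-3.77), Krt25 (-5.88), Krt84 (-4.81), Krt23 (-4.09) and Krt80 (-1.05). Krt6b had no count in D3.5 control LE and 4763 counts at D0.5, at least 519-fold lower, and Krt6a and Krt86 were at least 71.1-fold and 17.7-fold lower on the same floor of 3 counts over the group. Of the 652 Krt6a counts at D0.5, 521 came from mouse 9, without which the bound was 15.3-fold, and 87 of the 162 Krt86 counts came from mouse 1, without which it was 8.88-fold. Krt1 and Krt16 had 2 counts each at D3.5 against 684 and 236 at D0.5. Krt35, a hair keratin, rose, with 110 counts at D3.5 and 1 count at D0.5. Without mouse 9, Krt5 (7.24), Krt13 (3.67) and Krt15 (4.35) were among the keratins called higher at D3.5.

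In knockout LE the same interval looked different. Here 9 keratins rose and 5 fell at D3.5 against D0.5, beside 21.4% of all tested genes higher and 20.2% lower. No simple keratin fell. Krt19 rose by 0.89 ± 0.28 (640 to 1344 CPM at D3.5, 388 to 782 CPM at D0.5; adjusted p = 0.0127), while Krt8, Krt18 and Krt7 were not called. Krt15 rose by 5.49 ± 1.31 (101 to 2593 CPM at D3.5, 0.209 to 79.3 CPM at D0.5; adjusted p = 0.00139), Krt80 by 1.84 ± 0.29, Krt12 by 4.67 ± 0.74 and Krt10, the partner of Krt1, by 2.09 ± 0.50. Krt79, a type II keratin of the hair canal, rose by 3.46 and Krt36 by 3.25. Krt4, with no count at D0.5, was at least 162-fold higher (89.2-fold without mouse 35), and Krt35 had 127 counts at D3.5 and 3 at D0.5. Krt25 (-5.62), Krt86 (-4.61) and Krt14 (-3.06) fell. Krt6b and Krt6a, with no count at D3.5, were at least 155-fold and 32.7-fold lower, and for Krt6a the bound was 12.6-fold without D0.5 mouse 21. Krt6a, Krt6b, Krt25 and Krt86 thus fell and Krt35 rose in both genotypes.

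The test of the difference between the days gave 10 keratins with the higher knockout effect at D3.5 and none with the higher effect at D0.5, beside 9.52% and 6.99% of all tested genes. The simple keratins Krt8 (1.64 ± 0.38, adjusted p = 0.00378), Krt19 (2.81 ± 0.44, adjusted p = 6.34e-05) and Krt7 (1.67 ± 0.45, adjusted p = 0.0111) were among them, and Krt18 was not. Krt80 (2.89 ± 0.44, adjusted p = 4.88e-05), Krt12 (6.35 ± 1.10), Krt23 (4.25 ± 0.86) and Krt87 (2.73 ± 0.67) followed, then the low genes Krt79 (4.58), Krt1 and Krt4. For Krt1 and Krt4 a group of 2 counts or none enters the fit, so its value gives no size. With the D3.5 knockout limited to mice 31, 32 and 34, 8 keratins were called, Krt8 (1.63) and Krt19 (2.52) among them and Krt7 not. In that fit 986 of all tested genes had a higher effect at D3.5 and 828 a lower one. Among the 18 desmosome and linker genes the test was passed by 8, in this same direction, and by none in the other.

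In the whole-uterus materials the D0.5 pattern of the simple keratins recurred. In DU, 7 keratins fell and 2 rose among 22 tested, where 4.17% of all genes fell and 3.89% rose, and in U 7 fell and 1 rose among 21 tested, where 2.96% fell and 2.02% rose. The DU, U and LE libraries of a mouse share that animal, so these are not independent samples of the effect. Krt8 measured 326, 291 and 337 CPM in D0.5 knockout DU against 390, 693, 1335 and 509 CPM in D0.5 control DU, and all knockout libraries were below all controls (-1.20 ± 0.33, adjusted p = 0.0437). In U it measured 204, 426, 388 and 297 CPM in the knockout against 451 to 2328 CPM with a median of 787 CPM in control, again without overlap (-1.66 ± 0.39, adjusted p = 0.0163). Krt19 fell in DU (-1.59 ± 0.37, adjusted p = 0.0209) and in U (-2.12 ± 0.51, adjusted p = 0.0183), and so did Krt20 (-3.90 in DU and -4.20 in U). Krt18 and Krt7 were called in neither: Krt18 measured 216 to 267 CPM in knockout and 216 to 275 CPM in control DU, and 174 to 300 CPM in knockout and 272 to 529 CPM in control U. Krt7 measured 78.4 to 97.2 CPM in knockout and 93.4 to 192 CPM in control DU. In U its groups did not overlap, at 66.3 to 118 CPM in knockout and 119 to 383 CPM in control, and the log2 fold change of -1.01 ± 0.36 (adjusted p = 0.127) was called by DESeq2 (adjusted p = 0.0451). Krt18 in U was called lower by limma on log2(TPM + 1) (-0.522, adjusted p = 0.0445) and on log2(TPM + 0.1) (-0.524, adjusted p = 0.049).

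Outside the simple class, Krt87, Krt23 and Krt84 fell in both DU and U. Krt87 measured 0.778, 0.931 and 1.23 CPM in D0.5 knockout DU against 12.2, 11.9, 12.4 and 9.85 CPM in D0.5 control DU, a gap many times the spread within either group (-3.56 ± 0.36, adjusted p = 0.000207). In U it measured 0.728, 1.25, 1.02 and 0.765 CPM in the knockout and 8.49 to 16.5 CPM in control (-3.83 ± 0.52, adjusted p = 0.000163). Krt23 fell in both (-2.38 ± 0.43 in DU and -2.40 ± 0.55 in U). Krt84 had 1 count in knockout against 204 in control DU and 1 count in knockout against 159 in control U. Krt6b fell in U (-4.33), and Krt1 fell in DU, with 1 count in knockout and 89 in control. Krt5 rose in both, at 22.4, 2.95 and 0 CPM in knockout and at most 0.178 CPM in control DU, and at 5.94, 6.17, 0.243 and 0.102 CPM in knockout and at most 0.188 CPM in control U. Krt14 rose in DU (3.83 ± 1.10, adjusted p = 0.0489).

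Several of these D0.5 calls rested on few libraries. In DU, leaving out knockout mouse 25 ended those of Krt8, Krt19, Krt20, Krt1, Krt5 and Krt14, with adjusted p-values up to 0.365, and the count ran from 3 to 8 over the 7 libraries left out in turn; without knockout 26 Krt8 and Krt19 were lost, without knockout 27 Krt8, Krt19, Krt20, Krt1 and Krt84, without control 5 or 8 calls including Krt8 and Krt20, and without control 1 or 9 Krt5 and Krt14. In U, leaving out knockout mouse 27 ended the calls of Krt8 (adjusted p = 0.0558), Krt19 (adjusted p = 0.0617) and Krt23 (adjusted p = 0.0502), and those of Krt5 and Krt6b were lost in 8 of 10 omissions each, with adjusted p-values up to 0.134 and 0.149. The library labelled knockout 33 lies outside these 2 groups but shares the estimate of the spread. Without it, 9 keratins were called in U, against 8 with it. The calls of Krt87 in both materials kept their side of the threshold in every omission. The summed general epithelial genes moved with the simple keratins, at 3170 to 3440 CPM in knockout and 4620 to 6010 CPM in control DU and at 3110 to 3440 CPM in knockout and 5060 to 7970 CPM in control U, and their part in the result was not tested.

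At D3.5 few keratins were called in the whole-uterus materials. In DU 1 keratin rose (Krt15) and 2 fell (Krt83 and Krt23), beside 0.117% of all tested genes higher and 0.457% lower. Krt15 measured 29.0, 5.54 and 219 CPM in knockout DU (mice 32, 34 and 35) and had no count in any control DU library, at least 2410-fold higher against a floor of 3 counts over the control group (adjusted p = 0.0425). Mouse 35 gave 5272 of its 5950 counts, and without it the bound was 439-fold. Krt83, a type II hair keratin, measured 0.309, 0 and 0.083 CPM in knockout DU against 21.2, 14.7 and 70.7 CPM in control DU, and fell by 8.09 ± 1.19 on the log2 scale (adjusted p = 0.00669). Krt23 measured 3.45, 3.68 and 4.53 CPM in knockout DU against 21.2, 21.9 and 45.7 CPM in control DU, and fell by 2.93 ± 0.43 (adjusted p = 0.00669). None of the 3 genes overlapped between the groups, and neither did 6 of the 19 uncalled keratins, all higher in the knockout: Krt19, Krt20, Krt5, Krt12, Krt17 and Krt80. The share of all tested genes without overlap was not counted, so with 3 libraries a group this count has no background. Krt19 measured 89.3 to 134 CPM in knockout DU against 26.4 to 55.6 CPM in control DU, and its log2 fold change of 1.29 ± 0.39 (adjusted p = 0.273) was called by DESeq2 (adjusted p = 0.0368) and by edgeR with only these 2 groups (adjusted p = 0.0405). Leaving out knockout mouse 32 ended the calls of Krt15 and Krt23 and leaving out 35 those of Krt15 and Krt83, with adjusted p-values up to 0.195 for Krt15, 0.0517 for Krt23 and 0.0508 for Krt83, and leaving out any control library ended that of Krt15. Krt8 (-0.08), Krt18 (-0.42) and Krt7 (0.30) were not called and overlapped between the groups. The summed epithelial genes overlapped at D3.5, at 747 to 844 CPM in knockout and 590 to 975 CPM in control DU and at 692 to 1250 CPM in knockout and 711 to 1350 CPM in control U.

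In U at D3.5, 1 keratin rose, Krt15, beside 0.0185% of all tested genes higher and none lower. It measured 23.2, 0, 8.53, 216 and 70.9 CPM in knockout mice 32, 33, 34, 35 and 37, with 8158 counts in all, and 2 counts in all in 5 control libraries (adjusted p = 0.0289). At an unadjusted p under 0.05, 8 of the 21 keratins tested passed, beside 4.2% of all tested genes. The library labelled knockout 33 had no Krt15 and no Krt5, and its Krt83 was 26.3 CPM against at most 0.189 CPM in the other 4 knockout libraries and 16.4 to 83.7 CPM in control U. Its Krt23 was 23.4 CPM, against 3.64 to 6.19 CPM in the other 4 knockout libraries and 16.4 to 38.7 CPM in control U. Without it, 4 keratins were called: Krt15 (adjusted p = 3.51e-05) and Krt5 (8.00 ± 1.32, adjusted p = 0.00406) rose, and Krt83 (-8.97 ± 1.21, adjusted p = 0.000546) and Krt23 (-2.30 ± 0.43, adjusted p = 0.0108) fell, beside 0.693% of all tested genes called. With all libraries, leaving out knockout 35 or 37 or any control ended the call of Krt15 (adjusted p up to 0.169). Krt8, Krt18, Krt19 and Krt7 were not called with or without the library labelled knockout 33. Krt19 measured 30.4 CPM in that library and 141 to 220 CPM in the other 4 knockout libraries, against 39.2 to 112 CPM in control U. In LE, Krt83 stayed low on both sides at D3.5, at 0 to 0.179 CPM in knockout and 0 to 3.04 CPM in control. Krt83 has close relatives among the hair keratins (Krt81, Krt86, Krt87), as Krt6a and Krt6b have in each other, and reads shared between them make their split uncertain.

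**Figure D5:**
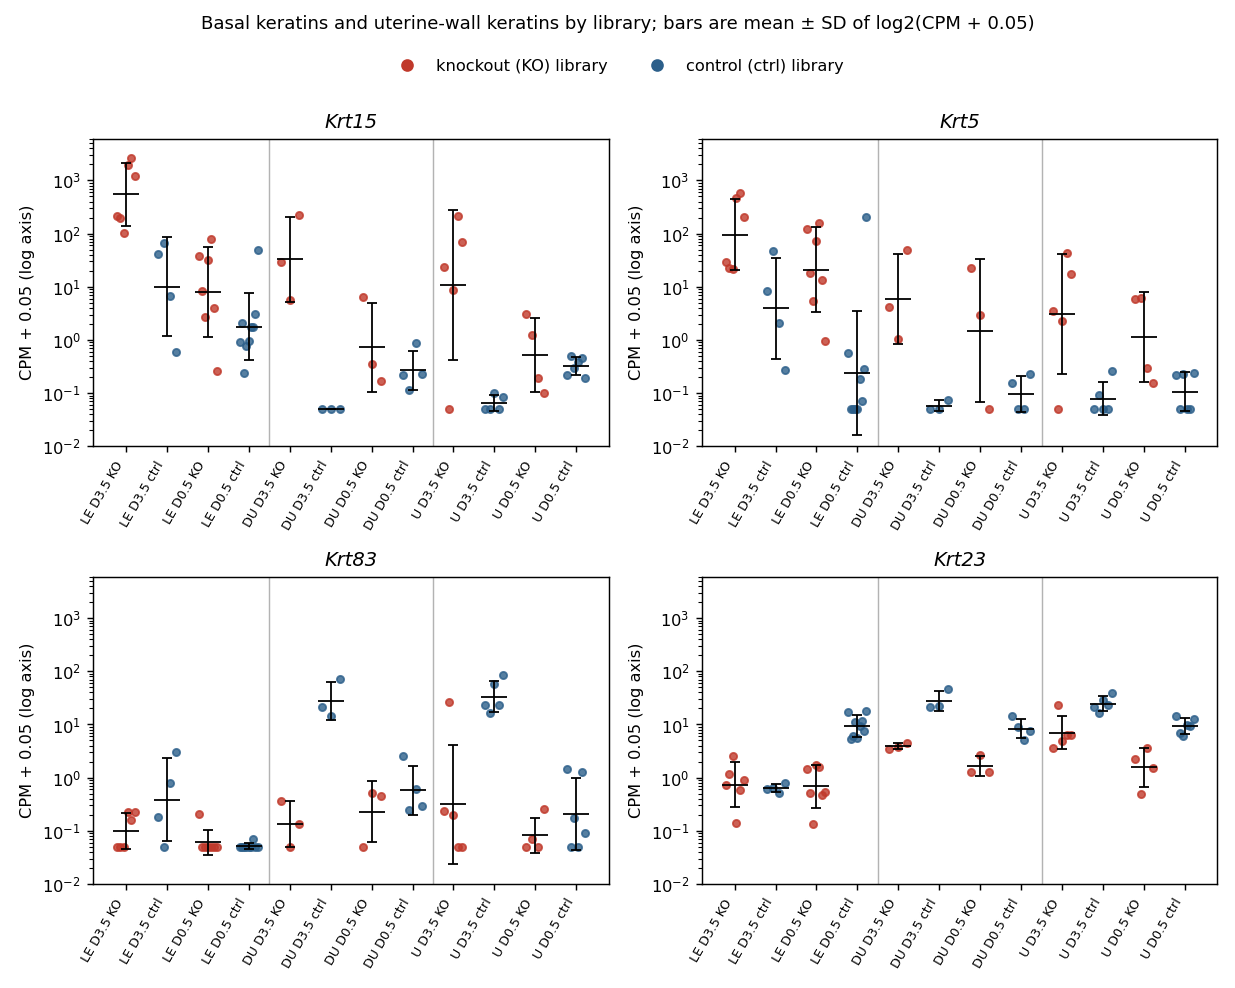
CPM + 0.05 of Krt15, Krt5, Krt83 and Krt23 in every library (points; knockout red, control blue) over the 12 groups on log axes; black bars are the mean and SD of log2(CPM + 0.05). Krt15 reaches 2593 CPM in D3.5 knockout LE, and Krt83 is at 14.7 to 83.7 CPM in D3.5 control DU and U while all D3.5 knockout libraries but the one labelled 33 (26.3 CPM) are at or below 0.309 CPM.

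The change over days in the whole-uterus materials ran mainly downward. In control DU 13 keratins fell and 2 rose at D3.5 against D0.5 (18.5% and 15.9% of all tested genes), and in control U 12 fell and 2 rose (18% and 16.2%). All 5 simple keratins fell in both, with log2 fold changes of -2.61 in DU and -2.66 in U for Krt8, -3.84 in DU and -3.74 in U for Krt19, -2.79 in DU and -2.67 in U for Krt7, and -1.27 in DU and -1.33 in U for Krt18. Krt20 measured at most 0.0424 CPM at D3.5 against 2.32 to 12.2 CPM at D0.5 in DU, and fell by 6.41 in U. Krt83 and Krt23 were the genes that rose: Krt83 by 5.14 ± 0.84 in DU (14.7 to 70.7 CPM at D3.5, 0.196 to 2.52 CPM at D0.5) and by 6.68 ± 1.50 in U, and Krt23 by 1.72 ± 0.37 in DU and 1.39 ± 0.46 in U. Krt87 (-4.44 in DU and -4.04 in U), Krt25 (-6.09 and -7.08) and Krt80 (-1.32 and -0.99) fell as well. Krt6b was at least 192-fold lower in DU (112-fold without D0.5 mouse 8) and 258-fold lower in U, and Krt12 fell by 2.82 in U. Krt84 and Krt86 fell in both, with 2 and 1 counts at D3.5 in DU and 3 and 2 in U; Krt12, at 3 counts at D3.5, and Krt1 (-2.73) fell in DU too. General epithelial genes moved with them: 15 of 16 fell in control DU and 14 of 16 in control U, with summed levels of 590 to 975 CPM at D3.5 and 4620 to 6010 CPM at D0.5 in DU. Their part in the fall of the keratins was not tested.

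In knockout DU 7 keratins fell and 3 rose over the same days (17.3% and 12.9% of all tested genes), and in knockout U 6 fell and 4 rose (14.6% and 10.9%). Krt7 (-1.83 ± 0.29 in DU and -1.60 ± 0.37 in U) and Krt18 (-1.58 ± 0.18 in DU and -0.99 ± 0.26 in U) fell in both. Krt8 fell in DU (-1.49 ± 0.35, adjusted p = 0.00654) and was not called in U, and Krt19 was called in neither: it measured 99.1, 89.3 and 134 CPM at D3.5 against 193, 200 and 232 CPM at D0.5 in DU. Krt15 rose by 5.26 in DU and 5.88 in U. In DU Krt1 and Krt10 (1.13) also rose, and Krt14 (-3.89), Krt25 (-3.88), Krt87 (-1.19) and Krt86 (at least 17.4-fold lower) fell. In U Krt83, Krt23 (2.25) and Krt222 (1.71) also rose, and Krt20 (-2.89), Krt25 (-2.61), Krt6b (at least 15-fold lower, and 8.46-fold without D0.5 mouse 27) and Krt86 (at least 67.3-fold lower) fell. The rise of Krt83 in knockout U came from the library labelled knockout 33: the log2 fold change was 6.79 with it and 0.77 without it (edgeR, adjusted p = 0.807). Krt23 was still called without that library, at a lower 1.47 ± 0.45 (adjusted p = 0.0207). In DU, leaving out 1 library left 5 calls without D3.5 knockout 32, 6 without D0.5 knockout 27 and up to 10 without the others, and without D3.5 knockout 35 Krt15 was lost (2.93, adjusted p = 0.121).

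The knockout effect differed between the days for 5 keratins in DU and 3 in U, all higher at D3.5, where 0.945% and 0.943% of all tested genes had a higher effect and 0.932% and 0.487% a lower one. Krt19 (2.88 ± 0.53 in DU, adjusted p = 0.0169; 3.19 ± 0.69 in U, adjusted p = 0.0223) and Krt87 (3.25 ± 0.52 in DU, adjusted p = 0.00882; 3.11 ± 0.68 in U, adjusted p = 0.0243) were called in both materials and in LE. Krt12 (5.30), Krt20 (7.96) and Krt1 (7.01) were added in DU and Krt84 (8.26) in U, and Krt8, Krt18 and Krt7 were not called. The calls of Krt12, Krt20, Krt1 and Krt84 were each lost in 8 or 9 omissions of 1 library, with adjusted p-values up to 0.126. In U 0 were called without D0.5 knockout 27 and 1 without D3.5 knockout 35, and at most 4 without any other library. In DU the count ran from 2 to 7, and Krt19 and Krt87 kept their side of the threshold in all 13 omissions. Groups totalling 1 to 3 counts enter the fitted values of Krt20, Krt1 and Krt12 in DU and of Krt84 in U, which therefore give no size.

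Set against whole uterus, scraped LE was rich in keratins. Over the mean of the 4 genotype and day groups, 19 keratins were higher and 3 lower in LE than in U among 30 tested, where 32.2% of all genes were higher and 34.8% lower. The simple keratins were higher by 2.13 ± 0.17 (Krt8), 1.86 ± 0.12 (Krt18), 2.37 ± 0.20 (Krt19) and 2.24 ± 0.17 (Krt7) on the log2 scale (adjusted p at most 5e-15). Of the 13 stratified keratins tested, 9 were higher in LE and the fitted values spread widely. They were 7.31 ± 1.13 for Krt13, 6.23 ± 1.05 for Krt5, 6.16 ± 0.86 for Krt15 and 4.47 ± 0.69 for Krt14. Lower values were 2.44 ± 0.48 for Krt17, 2.24 ± 0.87 for Krt16, 2.23 ± 0.57 for Krt79, 1.18 ± 0.36 for Krt12 and 0.70 ± 0.23 for Krt10. Krt20 and Krt80 were not called. The 3 genes lower in LE were Krt83 (-4.05 ± 0.97), Krt23 (-2.08 ± 0.27) and Krt222 (-1.69 ± 0.31), a keratin-related gene. Groups totalling 3 counts or fewer enter the fitted values of Krt13, Krt15, Krt16, Krt79 and Krt83, which therefore give no size. In D0.5 control LE, mouse 9 gave 2023 counts of Krt13 and 3270 of Krt5, against at most 52 and 10 in any other library. In D3.5 knockout LE, mice 35, 36 and 37 held the most of both. Krt83 and Krt23 are also the genes that fell in D3.5 knockout DU. Their level in LE was low at D3.5, with Krt23 at 0.0879 to 2.49 CPM in knockout and 0.461 to 0.759 CPM in control LE.

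DU was set against U to compare digested with undigested uterus. Between them no keratin was called by edgeR without regard to the mouse, where 0.00586% of all tested genes were lower and none higher; 3 of the 30 keratins tested had an unadjusted p under 0.05, beside 18.8% of all tested genes, and DESeq2 and limma called 0. With the mouse as a replicate block, which the design allows because the materials come from the same animals (17 mice, 47 libraries), 5 keratins were lower in DU. That fit also called 2613 of all tested genes lower and 2050 higher, so such calls were common among all genes. The log2 differences were -0.56 ± 0.10 for Krt8, -0.49 ± 0.11 for Krt18, -0.61 ± 0.11 for Krt19, -0.45 ± 0.12 for Krt7 and -1.23 ± 0.36 for Krt12 (edgeR, adjusted p between 0.000917 and 0.0126).

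The scaling of the libraries bears on all these directions. On the authors' TPM scale, with limma on log2(TPM + 1), the median of all genes shifted by 0.38 toward the knockout at D3.5 in LE, and 3546 genes were higher and 387 lower in the knockout, against 1215 higher and 890 lower in edgeR. Krt18 in D3.5 LE changed sign on that scale (0.35, against -0.07), by about the size of the shift. In knockout LE at D3.5 against D0.5 the median shifted by 0.42 and the split was 5799 higher and 1657 lower, against 3333 and 3155. For the difference between the days in LE it shifted by 0.36, with 2704 and 685 against 1485 and 1090. On that scale limma also called Krt8 (0.875, adjusted p = 0.00202) and Krt18 (0.559, adjusted p = 0.0159) over days in knockout LE. It called Krt7 in LE at D3.5 (1.175, adjusted p = 0.0123). For the difference between the days it called Krt18 in LE (0.765, adjusted p = 0.0482) and Krt8 in U (1.587, adjusted p = 0.0365). In U the splits over days were 2141 and 1535 against 1772 and 2367 in the knockout and 3010 and 1967 against 2632 and 2917 in control, with shifts of 0.15 and 0.17. In DU they were 3580 and 1685 against 2089 and 2800 in the knockout and 3556 and 2026 against 2574 and 2999 in control, with shifts of 0.22 and 0.17. At D0.5 in DU 302 genes were higher and 909 lower in the knockout, against 630 and 676, and for the difference between the days in DU the split was 176 and 101 against 153 and 151. Between LE and U it was 2999 and 6645 against 5491 and 5940, with a shift of -0.21, and between DU and U the shift was 0.14, with 1482 and 20 against 0 and 1. Krt7 between DU and U changed sign on the TPM scale (0.11, against -0.33), where it was called on neither. No other tested direction of Krt7, Krt8, Krt18, Krt19 or a called keratin turned on this scale.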

How the data were processed

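RNA-seq of 59 libraries from 29 mice was deposited as gene-level tables of estimated counts and of TPM made by the authors, with 1 column per library. Per the submitters' processing notes reads were quantified with kallisto 0.46.1 on GRCm39, and per the labels' protocols libraries were made with a NEBNext Ultra RNA kit. The deposited estimated counts were rounded to whole numbers. The authors' TPM, which sum to between 685 k and 820 k per library, were used to compare genes and as an alternative unit.

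Keratins were selected by symbol. The members and all gene lists were chosen with earlier results of these data known. Counts were fitted per tissue with edgeR 4.0.16 in R 4.3.3 (filterByExpr with a minimum count of 10 and minimum total of 15, TMM, quasi-likelihood test, all 4 groups of a tissue sharing the spread), and a joint fit of 59 libraries served the tissue comparisons. P-values were adjusted by Benjamini-Hochberg over all 15601 (LE), 16232 (U), 16194 (DU) or 17057 (joint) genes tested. CPM use library totals scaled by TMM within a tissue. Folds against a group at 0 are bounds against 3 counts over that group, which cover counting error only. Named genes were the detected keratins with their levels, up to 10 called keratins of smallest adjusted p per comparison, Krt7, Krt8, Krt18 and Krt19 always, and up to 3 called genes per other list; further genes and libraries were named after their values were seen. Alternatives were DESeq2 1.42.0, its size factors, limma 3.58.1 on log2 TPM with pseudocounts of 1 and 0.1, no filter on low values, 2 groups only, the mouse as a replicate block, and each library left out. Leaving single libraries out of the bounds, and leaving out libraries outside the groups compared, was chosen after the data were seen.

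LE, DU and U of 1 number come from the same animal per the labels, so the numbers pair the tissues: deviations from group means had a median correlation of 0.329 between LE and U (17 mice, lowest -0.211), 0.4 between DU and U (13 mice) and 0.153 between LE and DU (13 mice). No number joins animals across genotypes or days. All 134 pairs of libraries within groups differed by more than sampling noise (lowest chi-square per degree of freedom 9.38). The fits were tested on simulated data: of 200 genes changed 4-fold, edgeR recovered 88.5% for LE at D0.5 (15417 genes), 90% for U and 87.5% for DU. Of edgeR's calls there, 3.3%, 5.3% and 3.3% were false in that order. Of DESeq2's calls, 13.3%, 16.4% and 18% were false. The changed genes were drawn from those above a minimum mean count, so these rates do not describe keratins near 0.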

Additional observations from a re-analysis of the deposited data

Results flagged for a closer look

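In 8 of 120 combinations of a detected keratin and a group of 4 to 10 libraries, 1 library stood far from the others of its group. Chance gives about 1 in 20, which is near this rate, and the combinations share libraries, so they are not independent. In D0.5 control U, mouse 8 had 383 CPM of Krt7 (others 119 to 155 CPM) and 529 CPM of Krt18 (others 272 to 329 CPM). In D3.5 knockout U, the library labelled knockout 33 had 30.4 CPM of Krt19 (others 141 to 220 CPM), 3.17 CPM of Krt10 (others 6.33 to 7.8 CPM) and 23.4 CPM of Krt23 (others 3.64 to 6.19 CPM). In D0.5 control LE, mouse 9 had 26.1 CPM of Krt10 (others 3.25 to 6.05 CPM) and 49.7 CPM of Krt15 (others 0.191 to 3.05 CPM). In D3.5 control LE, mouse 16 had 0.531 CPM of Krt17 (others 2.4 to 2.93 CPM).

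The knockout effect, as a log2 fold change, differed between D3.5 and D0.5 by edgeR's interaction test. In LE the differences were 2.81 for Krt19, 1.64 for Krt8, 1.67 for Krt7, 2.89 for Krt80, 6.35 for Krt12, 4.25 for Krt23, 2.73 for Krt87 and 4.58 for Krt79, and the fitted values for Krt1 (7.05) and Krt4 (12.51) rest on groups with 2 counts or none and give no size. In DU they were 2.88 for Krt19 and 3.25 for Krt87, with fitted values of 5.3 for Krt12, 7.96 for Krt20 and 7.01 for Krt1 that rest on groups of 1 to 3 counts. In U they were 3.19 for Krt19 and 3.11 for Krt87, with a fitted value of 8.26 for Krt84 that rests on groups of 1 and 3 counts.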

How the results depend on the processing

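Counts of called keratins under the alternatives are set beside those reported. DESeq2 called 8 against 5 in LE at D3.5 (knockout against control), 3 against 1 in U at D3.5, 6 against 3 in DU at D3.5, and, for the difference between the days, 6 against 3 in U and 8 against 5 in DU. Calls over all tested genes were also more, at 2685 against 2105, 78 against 3, 244 against 93, 519 against 232 and 903 against 304 in that order. In the simulated D0.5 data, 13.3% to 18% of DESeq2's calls were false, against 3.3% to 5.3% of edgeR's. With the D3.5 knockout LE limited to mice 31, 32 and 34, 2 were called in LE at D3.5, the log2 value of Krt18 there became 0.043 and that of Krt7 between the days in knockout LE -0.66, both uncalled. With limma on log2 TPM, at pseudocounts of 0.1 and 1 and with no filter, 9, 9 and 12 were called over days in control LE against 15, 4, 4 and 6 over days in knockout U against 10, 6, 6 and 5 over days in knockout DU against 10, 5, 5 and 5 in DU at D0.5 against 9, and 0, 0 and 0 in U at D3.5 against 1; with no filter 14 were called in LE at D3.5 and 3 for the difference between the days in DU. Krt18 in LE at D3.5 was 0.347, 0.346 and 0.346 in these fits and Krt7 between DU and U 0.116, 0.114 and 0.114, none called. Over all tested genes, limma called 5756, 5666 and 6111 over days in control LE against 6861. It called 3648, 3676 and 3823 over days in knockout U against 4139, and 5262, 5265 and 5222 over days in knockout DU against 4889. In DU at D0.5 it called 1190, 1211 and 1033 genes against 1306, and in U at D3.5 6, 0 and 0 against 3. With no filter it called 4104 genes in LE at D3.5 against 2105, and 211 for the difference in DU against 304. With only the 2 groups compared, 4 were called in U at D0.5 against 8, 0 in U at D3.5 against 1, 4 in DU at D0.5 against 9 and 6 over days in knockout DU against 10. Over all tested genes these fits called 361 against 809, 0 against 3, 411 against 1306 and 4206 against 4889 in that order. With the mouse as a replicate block 5 were called between DU and U against 0, beside 4663 of all tested genes against 1. The 22 calls between LE and U were kept. The cause of these changes was not tested.

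Leaving out 1 library of the groups compared at a time, the counts ran from 13 to 15 in LE at D0.5, 3 to 6 in LE at D3.5, 12 to 14 over days in knockout LE, 15 to 18 over days in control LE, 10 to 11 for the difference in LE, 6 to 8 in U at D0.5, 0 to 4 in U at D3.5, 7 to 10 and 13 to 14 over days in knockout and control U, 0 to 4 for the difference in U, 3 to 8 in DU at D0.5, 1 to 3 in DU at D3.5, 5 to 10 and 13 to 16 over days in knockout and control DU, 2 to 7 for the difference in DU, 21 to 24 between LE and U and 0 between DU and U. Uncalled simple keratins changed sign in this way, as Krt18 in LE at D3.5 (-0.233 to 0.083) and over days in knockout LE (-0.089 to 0.184), Krt7 over days in knockout LE (-0.10 to 0.22), Krt18 (-0.309 to 0.053), Krt7 (-0.21 to 0.24) and Krt8 (-0.058 to 0.282) in U at D3.5, and Krt7 (-0.044 to 0.489) and Krt8 (-0.277 to 0.036) in DU at D3.5. Leaving out libraries that stood apart but lie outside the 2 groups compared, which was added after the data were seen, gave 9 against 8 in U at D0.5, 15 against 14 over days in knockout LE, 16 against 15 over days in control LE, and the reported counts in 3 other comparisons. The fewest libraries stand behind DU, with 3 or 4 a group.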
